A study of Mus musculus with 6 samples.

Results

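DNA methylation was examined at the genes of 4 transcription factors of blood cells, Runx1, Runx3, Spi1 and Etv6, in mouse kidney. The members were the CpG sites inside fixed spans of the mm9 genome that were covered by at least 10 reads in all 6 libraries. They numbered 583 of 943307 such sites: 216 in Runx1, 235 in Runx3, 11 in Spi1 and 121 in Etv6. The spans were 230 kb on chromosome 16 for Runx1 (92599001 to 92829000), 63 kb on chromosome 4 for Runx3 (134674001 to 134737000), 28 kb on chromosome 2 for Spi1 (90930001 to 90958000) and 239 kb on chromosome 6 for Etv6 (133983001 to 134222000). Cut into windows of 1 kb with at least 3 sites, the genes gave 61 of 89813 windows: 26 in Runx1, 19 in Runx3, 2 in Spi1 and 14 in Etv6. The genes were chosen because windows in Runx1 and Etv6 were more methylated in obstructed than in sham kidneys, so that difference is described here without a test.

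Libraries were made by reduced representation bisulfite sequencing, which cuts DNA with MspI at CCGG, selects short fragments rich in CpG, and tells methylated from unmethylated cytosines by bisulfite conversion. DNA came from kidney cortex and outer medulla of wild type male C57BL/6J mice, with 2 libraries in each of 3 groups. The first group had the left ureter tied off for 7 days (UUO) and received the agent labelled 5AZA by intraperitoneal injection at 1 mg/kg/day. The second had the same obstruction with saline, and the third was sham-operated. Sham 1 belongs to the obstruction experiment; sham 2 carries a label of an ischemia/reperfusion sham, with 48 hours in its name. The labels state neither the age of the mice nor whether each library is a mouse of its own, so p-values cover only the spread between these libraries, which may be technical.

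Runx1 and Runx3 encode factors with a Runt DNA-binding domain, which act with the partner Cbfb. Runx1 is needed for the first blood stem cells of the embryo, and Runx3 works in T lymphocytes and other leukocytes. Each gene has a distal promoter and a CpG-rich proximal promoter. Spi1 encodes PU.1, an ETS-domain factor of myeloid and B cells, and Etv6 encodes an ETS-domain repressor that blood stem cells of adult mouse bone marrow need. Methylation of CpG islands at promoters is a known means of stable silencing, and distal elements of such genes are often unmethylated in the cells that use them. A kidney is a mixture of cells, and a change within a cell type and a change in the mixture cannot be told apart in these data. RNA was not analysed here.

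The proximal promoters are shown because they are the densest groups of measured CpG sites of Runx1 and Runx3, and because adjacent sites in them were read at opposite levels. Sequences are the 250 bases before the transcription start, from RefSeq (GRCm38.p6), in the direction of transcription. Their place on mm9 was found by matching the spacing of covered CpG sites to the CpGs of the sequence. The Runx1 promoter lies at chr16:92697575-92697824 on the minus strand and the Runx3 promoter at chr4:134708210-134708459 on the plus strand. Capitals mark the CpGs with at least 10 reads in all 6 libraries.
Runx1 proximal promoter: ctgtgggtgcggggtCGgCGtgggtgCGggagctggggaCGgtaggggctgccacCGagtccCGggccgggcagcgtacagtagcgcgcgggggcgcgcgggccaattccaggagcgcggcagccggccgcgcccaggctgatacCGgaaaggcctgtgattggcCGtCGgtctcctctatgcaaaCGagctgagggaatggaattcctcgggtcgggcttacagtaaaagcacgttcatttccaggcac
Runx3 proximal promoter: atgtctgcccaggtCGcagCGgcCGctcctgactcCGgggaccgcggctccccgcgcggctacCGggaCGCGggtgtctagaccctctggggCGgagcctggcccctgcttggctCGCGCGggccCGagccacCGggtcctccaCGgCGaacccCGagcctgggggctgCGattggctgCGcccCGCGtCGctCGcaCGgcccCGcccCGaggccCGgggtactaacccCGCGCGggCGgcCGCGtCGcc

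Both proximal promoters were almost unmethylated in all 6 libraries, apart from CpGs inside the MspI recognition sequence. Within 250 bases before and 50 after the start, 18 of 35 CpGs were covered in Runx1 and 40 of 45 in Runx3. At the 15 covered Runx1 CpGs outside CCGG, the mean level was 1.51% and 2.08% in the 5AZA libraries, 1.85% and 1.77% in the saline libraries, and 1.18% and 0.900% in the sham libraries. All these values are close to 0. At the 35 such CpGs of Runx3, it was 2.18% and 2.27% with 5AZA, 1.58% and 1.14% with saline, and 1.62% and 2.11% in sham. The 2 CpGs inside CCGG in Runx1 averaged 77.9% with 5AZA, 83.5% with saline and 74.2% in sham, and the 5 in Runx3 averaged 73.1%, 75.8% and 70.7% in the same order. The split by CCGG was chosen after the values were seen. Per the labels' protocols, ends of MspI fragments were filled with a mix that held methylated dCTP; its part in the high CCGG levels was not tested. The last covered CpG of Runx1 reaches the edge of the sequence, so its CCGG state could not be read and it is in neither count.

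**Figure D1:**
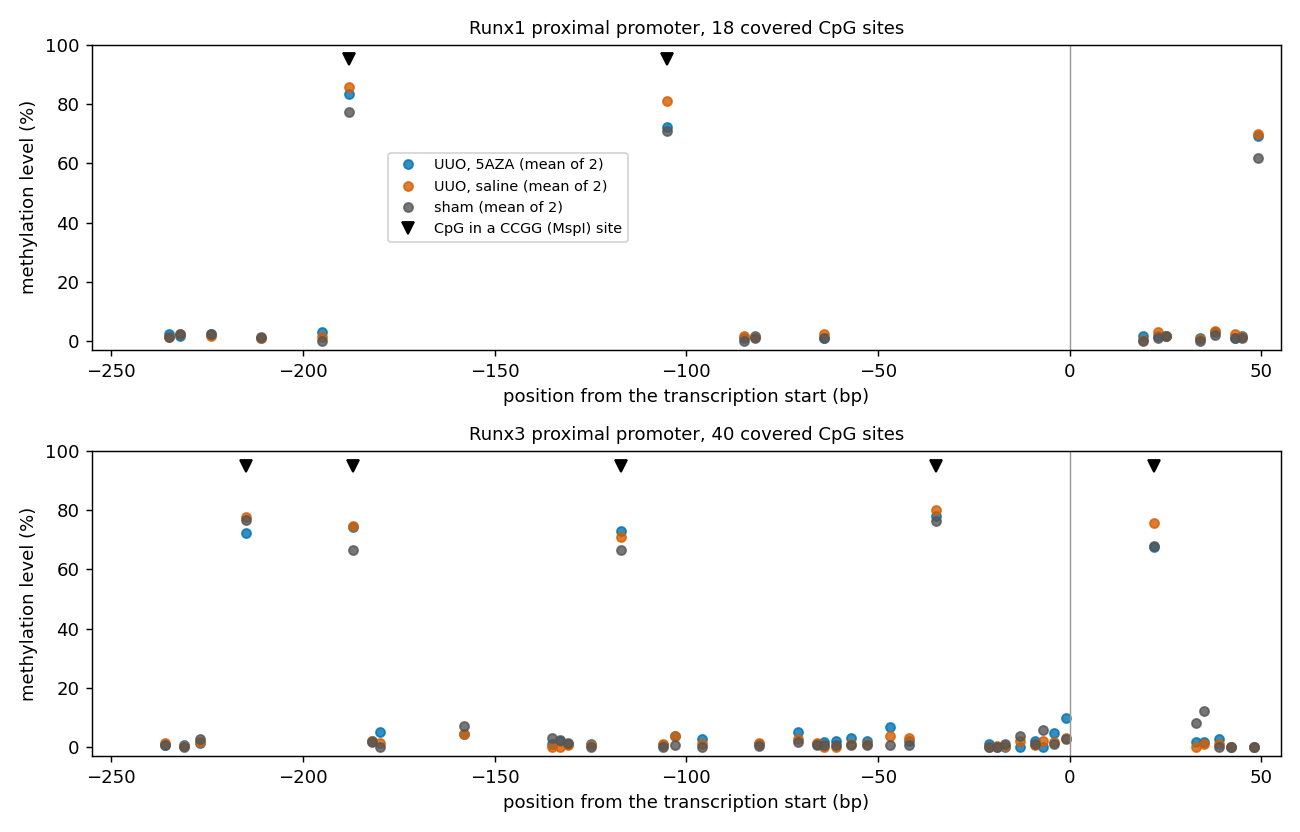
Methylation level (%, mean of 2 libraries per group) of each covered CpG against its position from the transcription start (bp) in the proximal promoters of Runx1 (18 sites) and Runx3 (40 sites); triangles mark CpGs inside CCGG. Over the 6 libraries the marked CpGs average between 70.2% and 82.2% and nearly all others between 0% and 5.45%; the rightmost Runx1 site, whose CCGG state could not be read, is also high.

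In the wider region from 1000 bp before to 500 bp after the start, without candidate fragment-end sites, the Runx1 level was 1.87% and 2.71% with 5AZA, 2.23% and 2.07% with saline, and 1.69% and 1.47% in sham (41 sites). For Runx3 it was 3.76% and 3.43% with 5AZA, 3.14% and 3.53% with saline, and 3.17% and 3.63% in sham (81 sites). Candidate fragment-end sites are those whose coverage was within 5% of that of both neighbours together, each neighbour being at most 220 bp away and holding at least 10% of it, or that stood at 30% or more in a window of 10 or more sites whose median was under 5%. The last rule removes sites because they are high, so the low levels above follow in part from it. For Runx3 all 3 groups overlapped. For Runx1 both saline libraries were above both sham libraries, by 0.57 points on average, and the 5AZA libraries lay on both sides of the saline libraries. With all sites included, Runx1 averaged 16.3% with 5AZA, 16.4% with saline and 15.3% in sham (51 sites). Runx3 averaged 12.4%, 12.7% and 12.3% in the same order (94 sites). Searched on both strands of the 300 bases around each start, CCGG had 4 matches in Runx1 and 5 in Runx3, and 52.8% of the 32851 promoters of the table hold it. The RUNX motif TGTGGT had 0 matches in either promoter (16.8% of promoters hold it), and the PU.1 motif GAGGAAGT had 0 (3.20%).

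Reads at the member sites were of moderate depth. The median was 55 and 60 reads per site in the 5AZA libraries, 71 and 66 in the saline libraries and 59 and 34 in the sham libraries. Summed over all shared sites, the read counts were 51898017 and 54525465 in the 5AZA libraries, 70692713 and 59425207 in the saline libraries, and 59353066 and 34197283 in the sham libraries. Sham 2 was the shallowest library and had the lowest mean level of all shared sites, at 42.9% against 44.4% in sham 1. Differences from sham 1 alone are therefore given beside those from both shams for gene means and for windows described between saline and sham. At the edge of the coverage minimum, the 65 sites of these genes whose lowest coverage was 10 to 14 reads averaged 62.2% with 5AZA, 65.7% with saline and 63.5% in sham. The 73 sites just outside, at 5 to 9 reads, averaged 63.0%, 68.0% and 65.4% in the same order.

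Mean methylation was higher in both saline libraries than in every 5AZA and sham library for Runx1, Runx3 and Etv6, and not for Spi1. Over its 216 sites, Runx1 averaged 46.8% and 46.1% with 5AZA, 49.6% and 51.3% with saline, and 47.6% and 46.0% in sham. Saline was thus above sham by 3.69 points, or by 2.90 points against sham 1 alone, and the difference between 5AZA and saline was -3.98 points. Runx3 averaged 33.2% and 33.3% with 5AZA, 36.35% and 36.2% with saline, and 33.5% and 32.0% in sham. Its saline level was 3.52 points above sham and 2.76 points above sham 1 alone, and its difference between 5AZA and saline was -3.02 points. Counted as methylated reads over all reads, in which deeply covered sites weigh more, the Runx3 differences were 2.00 points between saline and sham and -1.69 points between 5AZA and saline, and the Runx1 differences were 2.31 and -3.86 points in the same order.

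Etv6 averaged 50.6% and 49.2% with 5AZA, 53.96% and 54.4% with saline, and 51.6% and 50.9% in sham. Saline exceeded sham by 2.94 points, or by 2.59 points against sham 1 alone, and the difference between 5AZA and saline was -4.23 points. With the same pooled reads, the Etv6 difference between saline and sham turned to -2.66 points, and that between 5AZA and saline shrank to -0.31 points; the cause was not tested. Spi1, with 11 sites, averaged 82.0% and 79.7% with 5AZA, 82.8% and 83.6% with saline, and 82.6% and 83.6% in sham, so its saline and sham libraries overlapped (0.15 points, and 0.67 against sham 1 alone). Over all shared sites of the series, saline exceeded sham by 1.61 points (0.865 against sham 1 alone) and 5AZA differed from saline by -2.04 points. An exact two-sided permutation test of 2 libraries against 2 cannot give a p below 0.333, so no test of these means is given.

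**Figure D2:**
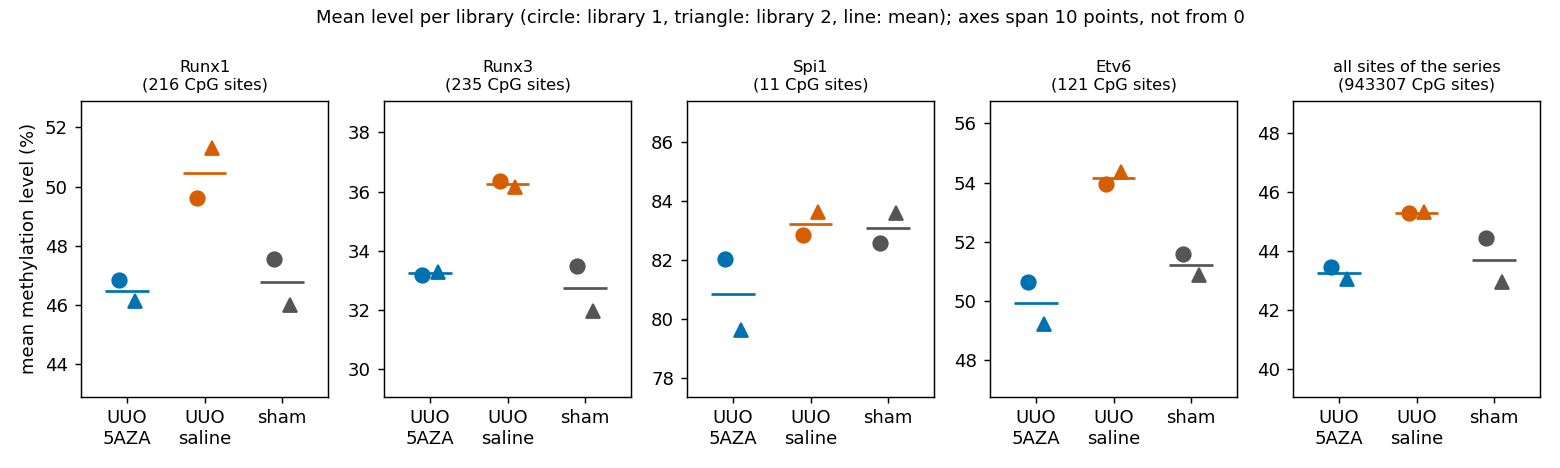
Mean methylation level (%) of each library over the shared CpG sites of Runx1, Runx3, Spi1, Etv6 and the whole series; points are libraries, lines are means of 2, and each axis spans 10 points without starting at 0. The saline libraries stand above the other 4 in Runx1, Runx3 and Etv6, as they do over all sites; in Spi1 they overlap sham.

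Site by site, both saline libraries were above both sham libraries at 72 of 216 Runx1 sites (33.3%), 85 of 235 Runx3 sites (36.2%), 27 of 121 Etv6 sites (22.3%) and 2 of 11 Spi1 sites. Of all sites of the series, 22.4% had that order. Both were below at 15, 10, 13 and 1 sites of these genes in turn, against 7.99% of all sites. These counts come from the contrast that chose the genes, and neighbouring sites can share reads.

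The windows of these genes covered the whole range of methylation. Averaged over the 6 libraries, 5 of the 61 windows lay under 20%, 10 at 20 to 40%, 5 at 40 to 60%, 9 at 60 to 80% and 32 at 80% or more. Most windows under 40% in Runx1 and Runx3 were centred within 3.04 kb of the proximal start. In that range the Runx3 windows at 134707001 and 134710001 were higher, at 54.7% and 44.6%. Isolated windows under 40% lay at 91.1 kb downstream in Runx1 and at -11.96 kb and 23.0 kb in Runx3, where the minus sign means upstream. The windows at 91.1 kb and 23.0 kb had the largest difference between saline and sham of their gene. Positions in exons or introns are not given, since no mm9 annotation was used.

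**Figure D3:**
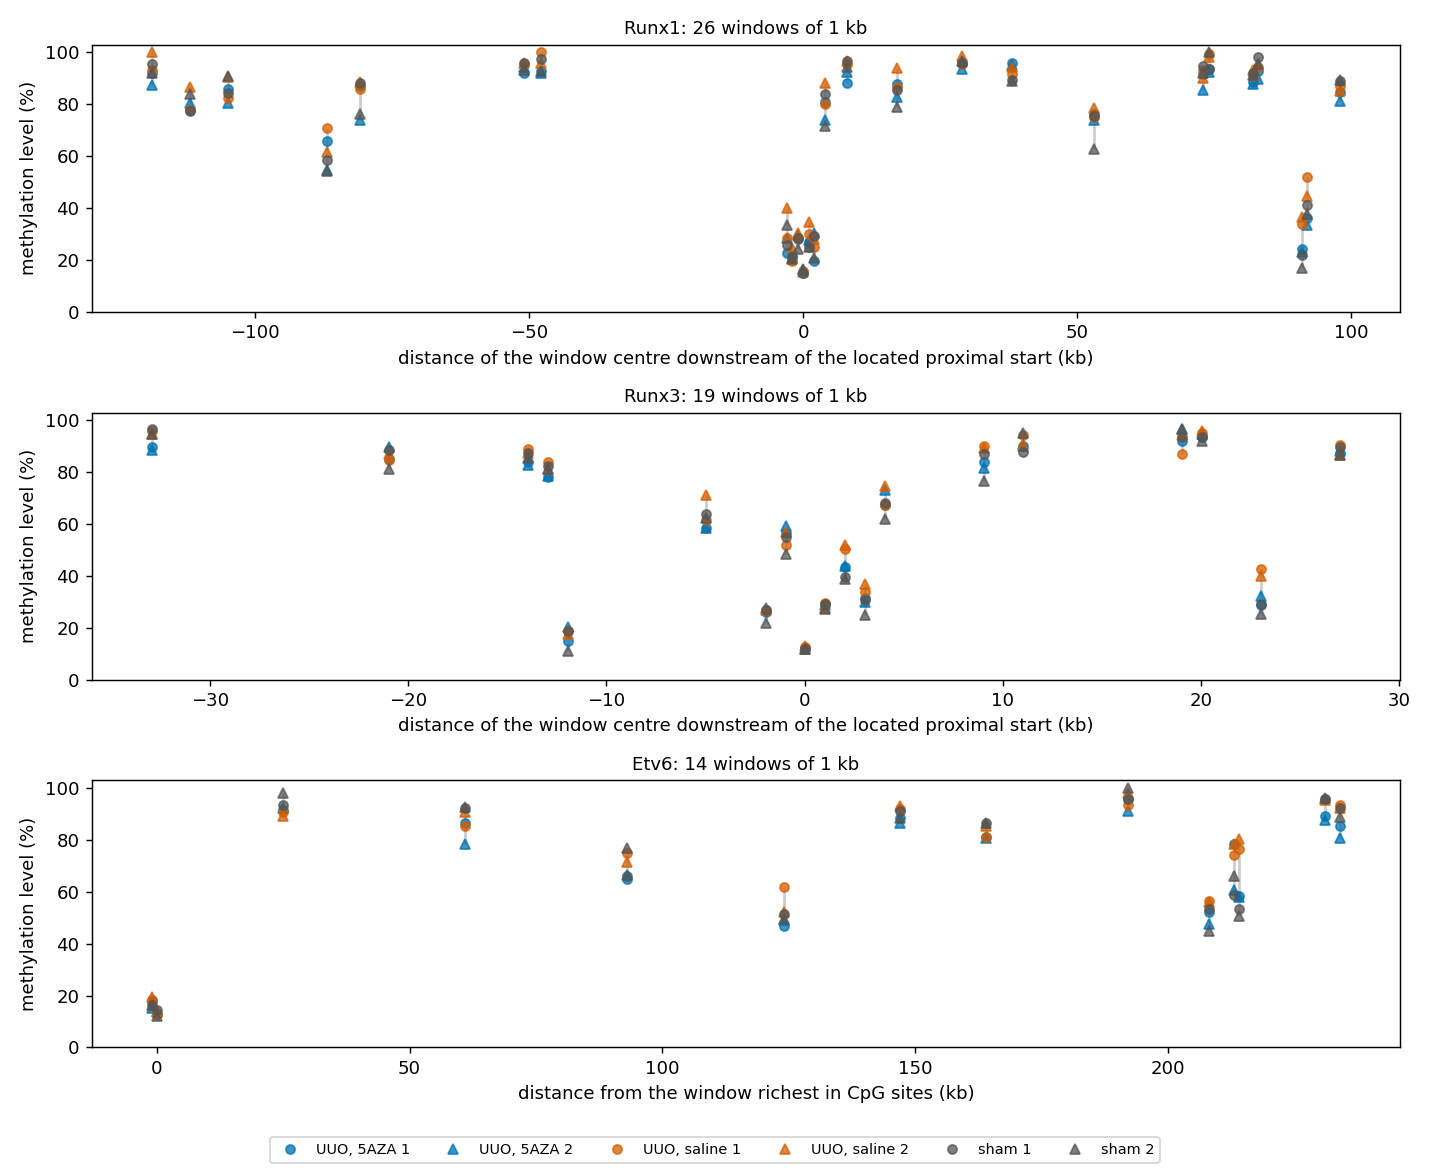
Methylation level (%) of each 1 kb window in each of the 6 libraries, against its distance (kb) from the located proximal start of Runx1 and Runx3 and, for Etv6, from the window richest in CpG sites; vertical lines join the lowest and highest library. The low windows at 0 show tightly grouped libraries, whereas the saline points stand above the rest at 91.1 kb in Runx1, 23.0 kb in Runx3 and near the right end of Etv6.

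The first comparison asked how obstruction changed methylation, as saline against sham. In Runx1 the largest difference was at 92606001 to 92607000, a window of 22 CpG sites. Read counts of windows were summed over sites, so a read that crosses several sites counts at each of them. Counted in this way, the window held 722 to 2376 reads per library, and its single sites held 13 to 158. Its level was 24.1% and 22.9% with 5AZA, 33.6% and 36.5% with saline, and 21.7% and 16.9% in sham. Both saline libraries were well above all others, by 15.8 points over the sham mean and 13.3 points over sham 1 alone. The window before it, at 92605001 (4 sites), had 36.2% and 33.2% with 5AZA, 51.9% and 44.7% with saline, and 41.1% and 37.5% in sham. There, too, both saline libraries were highest, 9.01 points above sham and 7.21 above sham 1 alone. Without saline 1 the difference was 5.40 points. Only 1 of the 4 sites, with a lowest depth of 12 reads, had both saline libraries above both shams (84.6% and 57.8% against 54.7% and 41.7%). The sites at positions 986 and 989 had the same read range, 13 to 96, as the first sites of the 22-site window and may share reads with them.

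The difference in the 22-site window was found at most of its measured sites, which lay between positions 20 and 362 of the window. Both saline libraries exceeded both sham libraries at 18 of its 22 sites, against 22.4% of all sites of the series. Saline and sham overlapped at positions 20, 22, 25 and 362. Neighbouring sites can share reads. At the 18 sites with a mean level under 60%, the level was 12.3% and 10.8% with 5AZA, 20.2% and 25.5% with saline, and 8.11% and 5.67% in sham. The 4 sites of 60% or more averaged 75.1% with 5AZA, 85.7% with saline and 75.3% in sham. The split at 60% was chosen after the values were seen. One such high site had the coverage pattern of a candidate fragment end; without it the window differed by 15.4 points as a mean over sites.

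In the same gene, the window at 92784001, centred at -86.9 kb from the proximal start, held 3 sites at 66.0% and 54.6% with 5AZA, 70.7% and 61.5% with saline, and 58.3% and 54.1% in sham. Its saline mean was 9.87 points above sham (7.75 against sham 1 alone, and 5.28 without saline 1), while one 5AZA library lay within the saline range. The promoter window at 92697001, with 45 sites the richest of the gene, had 14.9% and 16.4% with 5AZA, 15.7% and 15.1% with saline, and 14.9% and 16.1% in sham. Its libraries overlapped fully, with a difference of -0.10 points between saline and sham (0.51 against sham 1 alone) and 0.25 points between 5AZA and saline. Of the 26 Runx1 windows, 7 had both saline libraries above both sham libraries and 2 had both below. Of all windows, 32.3% and 9.73% had these orders. The median difference in Runx1 was 2.31 points.

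Runx3 showed the same kind of isolated window. The window at 134731001 to 134732000 had 24 sites and 1098 to 2199 reads per library, summed over sites. Its level was 28.7% and 32.2% with 5AZA, 42.6% and 40.0% with saline, and 29.2% and 25.4% in sham. Both saline libraries were above every other library, with a mean 13.96 points above sham (12.1 against sham 1 alone). Both saline libraries exceeded both sham libraries at 20 of the 24 sites, against 22.4% of all sites of the series. The 18 sites under 60% averaged 12.8% with 5AZA, 26.2% with saline and 9.90% in sham, while the 6 sites of 60% or more averaged 76.5%, 82.5% and 76.6% in the same order.

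Nearer the Runx3 start, the window at 134710001, centred 2.04 kb downstream, had 43.4% and 43.9% with 5AZA, 50.3% and 51.9% with saline, and 39.7% and 38.6% in sham. All 3 groups were apart from each other, with saline 11.9 points above sham and 11.4 above sham 1 alone. In its 4 sites, 2 were low, at 7.23% with 5AZA, 17.7% with saline and 5.53% in sham. At 134717001 the level was 83.8% and 81.7% with 5AZA, 90.0% and 89.5% with saline, and 87.0% and 76.7% in sham. Its difference of 7.91 points between saline and sham was 2.76 points against sham 1 alone and 13.1 points against sham 2 alone. The promoter window at 134708001, with 92 sites, differed by 0.93 points between saline (12.8% ± 0.357, SD, n = 2) and sham (11.9% ± 0.0157, SD, n = 2), and by 0.94 points from sham 1 alone. In Runx3, both saline libraries were above both sham libraries in 6 of 19 windows and below both in 0, with a median difference of 2.55 points. The shares of all windows were 32.3% above and 9.73% below.

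Etv6 held the largest difference of these genes. The window at 134199001 to 134200000 had 7 sites and 197 to 382 reads per library summed over sites, with 27 to 56 at single sites. Its level was 58.4% and 57.9% with 5AZA, 76.7% and 80.5% with saline, and 53.4% and 50.7% in sham. The saline libraries were far above all others, 26.5 points above sham and 25.2 points above sham 1 alone. The 5 neighbouring sites inside the window carried it, and averaged 46.7% and 48.3% with 5AZA, 71.4% and 75.7% with saline, and 40.0% and 36.4% in sham. The 2 outer sites averaged 85.1% with 5AZA, 91.4% with saline and 88.2% in sham.

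The adjacent Etv6 window at 134198001 (4 sites) had 78.4% and 60.8% with 5AZA, 74.2% and 78.5% with saline, and 58.9% and 66.3% in sham. Both saline libraries were above both sham libraries, by 13.8 points (17.5 against sham 1 alone), but the 5AZA libraries differed from each other by more than that. A further window of this stretch, at 134193001, had 52.4% and 47.6% with 5AZA, 56.6% and 56.1% with saline, and 53.2% and 44.9% in sham, a saline excess of 7.25 points. That excess was 3.11 points against sham 1 alone and 11.4 points against sham 2 alone. The start of Etv6 could not be located on mm9, so its window richest in CpG sites is given in place of a promoter. That window, at 133985001 with 47 sites, averaged 13.2% ± 0.571 with 5AZA, 13.5% ± 0.810 with saline and 13.4% ± 1.72 in sham (SD, n = 2 each), and its libraries overlapped; against sham 1 alone the saline difference was -1.16 points. Of 14 Etv6 windows, 6 had both saline libraries above both sham libraries and 4 had both below, against 32.3% and 9.73% of all windows. The median difference in Etv6 was 1.90 points.

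**Figure D4:**
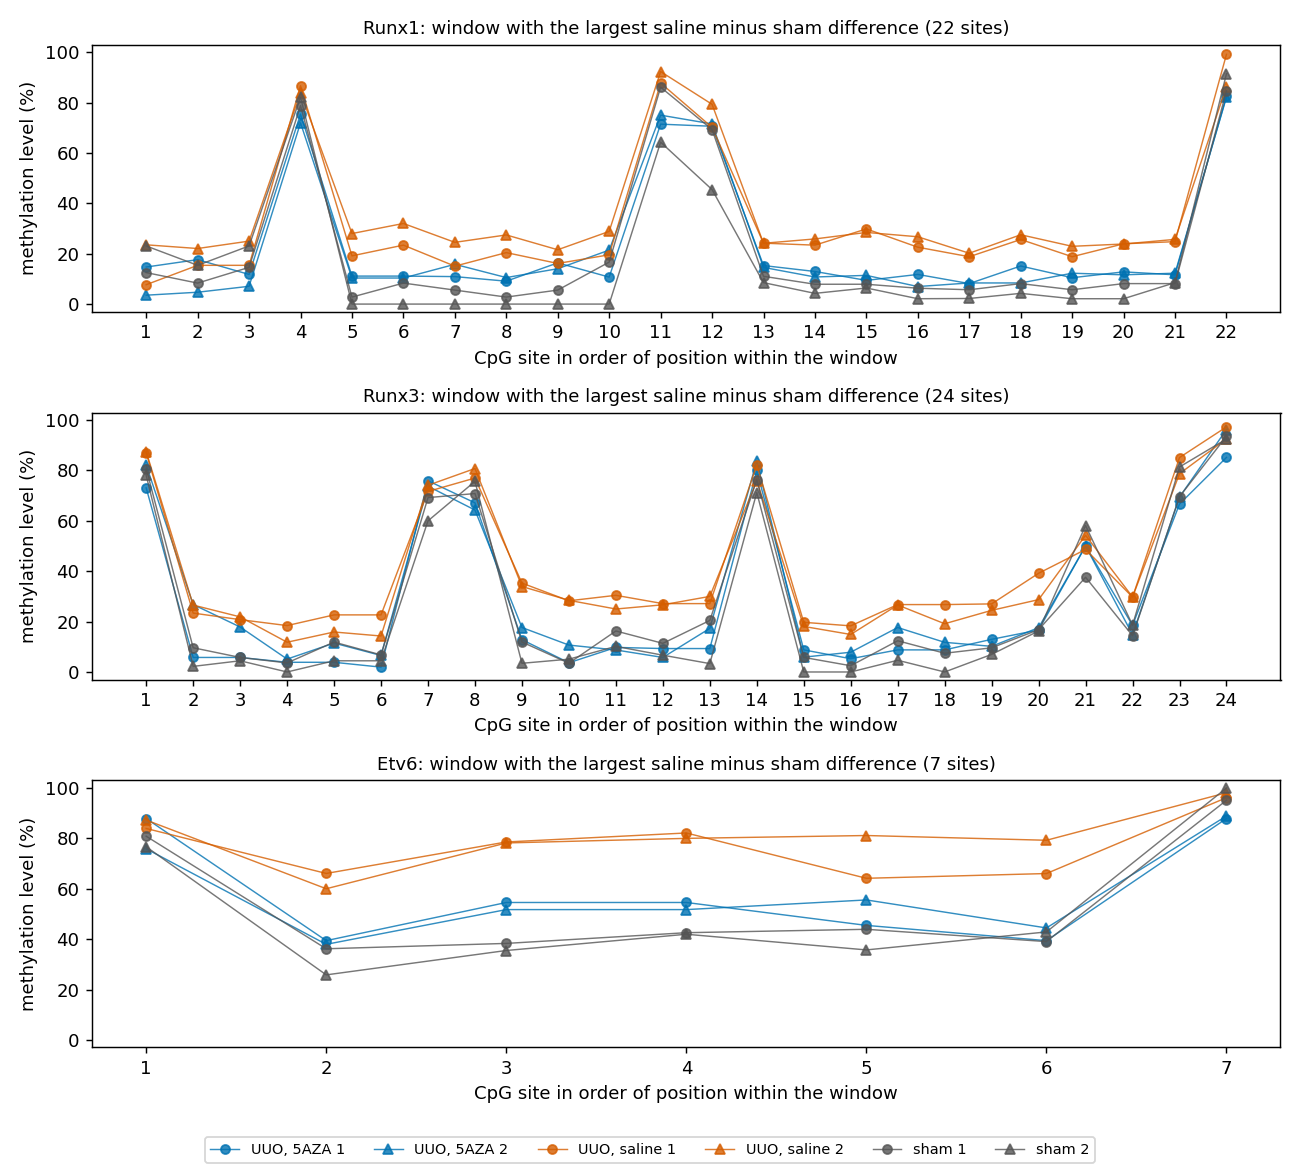
Methylation level (%) of every CpG site, in order of position, in each of the 6 libraries, for the window with the largest difference between saline and sham in Runx1 (22 sites), Runx3 (24 sites) and Etv6 (7 sites). At the 18 sites under 60%, both saline lines run above both shams at 15 in Runx1 and 17 in Runx3. They run above both 5AZA lines at 13 of these sites in Runx1 and 16 in Runx3. At the 5 inner sites of Etv6 they run above all others. At the sites of 60% or more the gap between saline and sham means is smaller in Runx1, at 10.4 points against 15.96 at the lower sites, and in Runx3, at 5.90 points against 16.3.

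Spi1 had only 2 windows with enough sites, and neither separated the groups by obstruction. The window at 90937001 (4 sites) had 76.9% and 80.2% with 5AZA, 78.1% and 83.7% with saline, and 80% and 87.1% in sham. The window at 90953001 (4 sites) had 79.5% and 75.1% with 5AZA, 81.0% and 80.2% with saline, and 79.5% and 81.25% in sham. Saline and sham overlapped in both, with differences of -2.63 and 0.27 points, or 0.90 and 1.15 points against sham 1 alone. The coverage of Spi1 was too sparse to describe the gene beyond these sites.

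Across the 4 genes, 19 of 61 windows had both saline libraries higher than both sham libraries, against 32.3% of all windows, and 6 had both lower, against 9.73%. By the edgeR quasi-likelihood test, 0.0445% of all windows were called higher and 0.00557% lower in saline than in sham. The median difference was 1.97 points in these genes and 1.13 points over all windows. By mean level, the members' median was 4.09 points against 1.58 for all windows at 20 to 40%, 7.25 against 4.53 at 40 to 60%, 6.32 against 4.35 at 60 to 80%, and 0.76 against 0.57 at 80% or more. Under 20% they were 0.93 and 0.96 points. As the genes were chosen on this contrast, these figures are a description only.

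**Figure D5:**
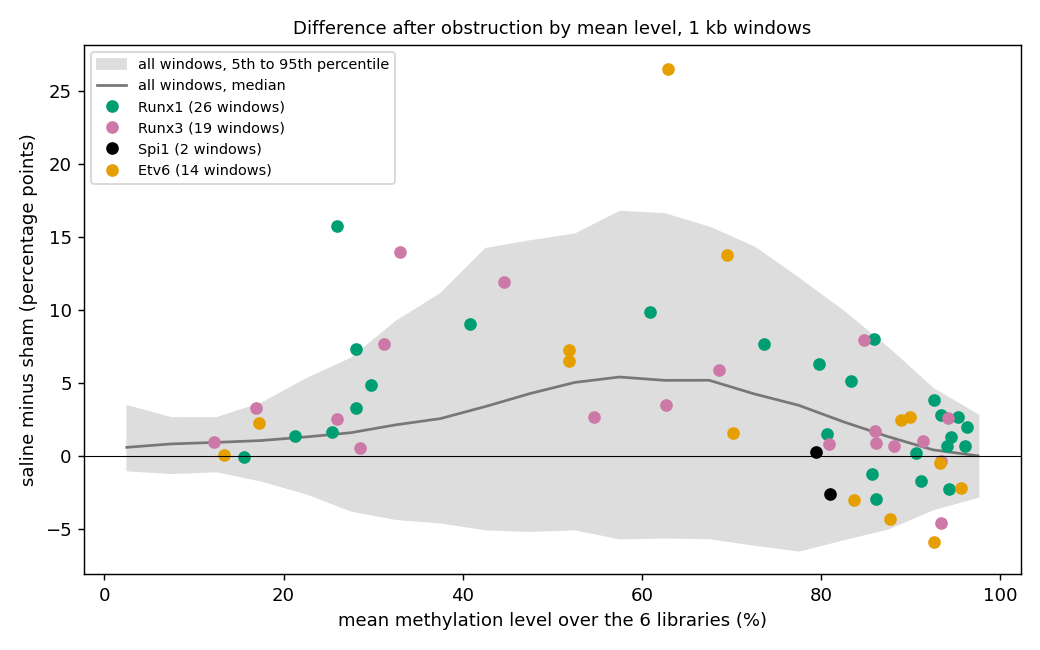
Difference between saline and sham (percentage points) of each 1 kb window of Runx1, Runx3, Spi1 and Etv6 against its mean level over the 6 libraries (%); the band holds the 5th to 95th percentile of all 89813 windows and the grey line their median. The Etv6 window at 26.5 points, the Runx1 window at 15.8 points and the Runx3 window at 13.96 points lie above the band, and most others lie within it.

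The effect of 5AZA in the obstructed kidney was the second question; this comparison shares the saline libraries with the contrast that chose the genes. Of the 61 windows, 5 passed an adjusted p of 0.05 (edgeR quasi-likelihood test, Benjamini-Hochberg over all 89813 windows), all lower with 5AZA: 2 in Runx1, 1 in Runx3 and 2 in Etv6. Of all windows, 1.55% were called lower and 0.00445% higher. In 31 of 61 windows both 5AZA libraries were lower than both saline libraries, and in 2 they were higher, against 49.1% and 5.69% of all windows. The median difference was -3.46 points in these genes and -2.70 points over all windows. Of single sites, 90 in Runx1 (41.7%), 83 in Runx3 (35.3%), 37 in Etv6 (30.6%) and 2 in Spi1 had both 5AZA libraries below both saline libraries, against 26.0% of all sites. Both were above at 14 sites in Runx1, 21 in Runx3, 4 in Etv6 and 2 in Spi1, against 8.71% of all sites.

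Of the called windows, 3 were those with the largest obstruction difference in their gene. The Etv6 window at 134199001 fell by 20.4 points with 5AZA (adjusted p = 0.0314), to 58.2% ± 0.406, against 78.6% ± 2.67 with saline (SD, n = 2 each). The Runx1 window at 92606001 fell by 11.5 points (adjusted p = 0.0340), to 23.5% ± 0.886, against 35.1% ± 2.06 with saline. The Runx3 window at 134731001 fell by 10.8 points (adjusted p = 0.0407), to 30.4% ± 2.47, against 41.3% ± 1.85 with saline. In each of them both 5AZA libraries were below both saline libraries and nearer to sham than to saline. Since a high saline value raises one difference and lowers the other, these falls are not independent of the choice of windows.

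The other called windows were highly methylated, with saline and sham means within 1 point of each other. Runx1 at 92689001 (8 sites, 8.07 kb downstream of the proximal start) had 88.3% and 92.3% with 5AZA, 95.6% and 96.8% with saline, and 96.7% and 94.4% in sham. It fell by 5.91 points with 5AZA (adjusted p = 0.0389), with both 5AZA libraries below the other 4. Etv6 at 134216001 (10 sites) had 89.2% and 87.6% with 5AZA, 95.7% and 95.3% with saline, and 95.97% and 96.1% in sham. It fell by 7.06 points (adjusted p = 0.0379), again with both 5AZA libraries lowest.

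Among the named windows, the largest differences without a call were the Runx1 window at 92605001, at -13.6 points (adjusted p = 0.136), and the Etv6 window at 134219001, at -9.82 points (3 sites, adjusted p = 0.164). Both have few reads, from 47 to 382 per library even when summed over their sites. The Runx3 window at 134703001 had 58.6% and 58.6% with 5AZA and 61.7% and 71.2% with saline, a difference of -7.84 points (adjusted p = 0.339). Beyond the named windows, and picked after their values were seen, Runx1 at 92700001 differed by -8.90 points (4 sites, adjusted p = 0.170) and Etv6 at 134109001 by -8.89 points (3 sites, adjusted p = 0.246). In Spi1 the differences were -2.39 and -3.31 points (adjusted p = 0.775 and 0.582).

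The calls rested on few libraries. Fewer windows were called whenever 1 library was left out, in these genes and over all windows alike. The count was also 0 by limma on log2 ratios (12 unadjusted) and 0 without candidate fragment-end sites (9 of 58 unadjusted), though the called windows kept their direction under the 15 alternatives that gave them a value.

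The third comparison set obstructed 5AZA kidneys against sham; it shares the sham libraries with the contrast that chose the genes. No window of the 4 genes was called by edgeR (0 of 61, with 8 at an unadjusted p under 0.05) or by limma (0, with 9 unadjusted). Of all windows, 0.0% were called higher and 0.00111% lower. The share of all windows at an unadjusted p under 0.05 is not given for this comparison. The unadjusted counts, here and for the promoters below, are therefore not read as a trait of those windows. Both 5AZA libraries were above both sham libraries in 7 of 61 windows and below both in 19, against 12.9% and 31.9% of all windows. In the Etv6 window at 134199001 the 5AZA level was 6.10 points above sham (adjusted p = 0.523), in the Runx1 window at 92606001 it was 4.21 points above (adjusted p = 0.346), and in the Runx3 window at 134731001 it was 3.11 points above (adjusted p = 0.510). Both 5AZA libraries were above both shams in the Etv6 and Runx1 windows and overlapped them in the Runx3 window. In the Etv6 window at 134216001 the difference from sham was -7.58 points (adjusted p = 0.0980), and in the Runx1 window at 92689001 it was -5.26 points (adjusted p = 0.137).

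Promoters of related genes were described in the same way where they could be placed on mm9. Of 41 other hematopoietic transcription factors, 11 were located, among them Gata2, Ikzf1, Cebpb, Gfi1, Irf4 and Tcf7. Of 10 RUNX partners and corepressors, 4 were located: Cbfa2t2, Cbfa2t3, Sin3a and Ncor1. By edgeR their 22 promoter windows gave 0 calls in each direction in each comparison, with 0, 0 and 3 at an unadjusted p under 0.05 for saline against sham, 5AZA against saline and 5AZA against sham; limma gave 0 calls as well. Their differences had medians of 0.91 points for saline minus sham and -0.29 points for 5AZA minus saline. Both saline libraries were above both shams in 8 of the 22 windows and below both in 3, against 32.3% and 9.73% of all windows. The Runx1 and Runx3 promoter windows stood at -0.10 and 0.93 points for saline minus sham.

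Promoter-region levels in this and the next paragraph include candidate fragment-end sites unless stated otherwise. Ikzf1, which encodes the lymphoid factor Ikaros, had 11.96% and 12.5% with 5AZA, 12.4% and 12.7% with saline, and 13.0% and 11.4% in sham over its promoter region. Irf4, a factor of lymphocytes and plasma cells, was higher, at 28.7% and 30.7% with 5AZA, 32.3% and 32.3% with saline, and 30.2% and 24.6% in sham. Without candidate fragment-end sites, the mean over the 6 libraries was 1.60% for Ikzf1 and 27.2% for Irf4. By the smallest root mean square difference in promoter-region level over the 6 libraries, the genes nearest to Runx1 among the 11 were Tcf7 (1.13 points) and Gata2 (1.13 points). Those nearest to Runx3 were Ikzf1 (0.589 points) and Elf1 (0.937 points). The match to Runx1 was with the first Tcf7 start and the second Gata2 start. Their other located starts averaged 19.9% and 17.7% over the 6 libraries. Without candidate fragment-end sites, Runx1 averaged 2.01%, the matched Tcf7 start 5.06% and the matched Gata2 start 9.12%, while Bcl11a was nearer at 1.93%. Runx3 then averaged 3.44% and Elf1 1.86%. The likeness thus holds only for levels that include those sites. Runx1 averaged 16.3% with 5AZA, 16.4% with saline and 15.3% in sham over the same region with all sites included.

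Promoters of markers of the cells a kidney can hold were sparsely covered. Of 17 leukocyte markers, 2 were located (Coro1a and Lcp1), of 16 of kidney epithelium 2 (Pax2 and Lrp2), of 7 of fibroblasts and pericytes 1 (Vim), and of 6 of endothelium 0. Of their 8 promoter windows, 0 were called in any comparison by edgeR or limma, with 0, 0 and 1 at an unadjusted edgeR p under 0.05 for saline against sham, 5AZA against saline and 5AZA against sham. Their median difference was 1.57 points for saline minus sham and 0.30 points for 5AZA minus saline. Both saline libraries were above both shams in 5 of these 8 windows and below both in 1, against 32.3% and 9.73% of all windows. By list, saline was above in 1 of 3 leukocyte windows (median -0.10 points), 3 of 4 of kidney epithelium (1.57 points) and the single Vim window (2.30 points). Both 5AZA libraries were above both saline libraries in 4 of the 8 windows and below both in 2, against 5.69% and 49.1% of all windows. They were above in 3 of 3 leukocyte windows (median 2.41 points). In kidney epithelium they were above in 1 of 4 and below in 1 (-0.12 points), and in the Vim window they were below (-1.87 points). Coro1a, an actin-binding protein of leukocytes, had 20.5% and 20.6% with 5AZA, 22.4% and 21.2% with saline, and 20.15% and 19.0% in sham at its first start, with both saline libraries highest. Lcp1, a leukocyte actin bundler, had 23.6% and 25.9% with 5AZA, 23.3% and 23.9% with saline, and 26.1% and 20.75% in sham, with all groups overlapping. Pax2, a factor of the kidney's developing epithelium, had 18.4% and 17.9% with 5AZA, 18.5% and 19.0% with saline, and 17.9% and 15.9% in sham at one start. At its other located start it had 17.8% and 16.9% with 5AZA, 16.9% and 16.8% with saline, and 15.9% and 14.9% in sham. Both saline libraries were above both shams at each Pax2 start. Lrp2, the endocytic receptor megalin of the proximal tubule, had 14.4% and 14.4% with 5AZA, 14.7% and 14.9% with saline, and 15.1% and 13.5% in sham. Vim, which encodes the mesenchymal filament vimentin, had 16.8% and 17.2% with 5AZA, 17.0% and 17.75% with saline, and 17.7% and 15.4% in sham. Over the whole promoter region, saline and sham overlapped in Lrp2 and in Vim. Without candidate fragment-end sites, the mean over the 6 libraries was 16.2% at the first Coro1a start and 7.23% in Lcp1. It was 9.17% and 1.65% at the Pax2 starts in turn, 1.96% in Lrp2 and 1.14% in Vim. The part of leukocytes in the values of Runx1, Runx3 and Etv6 was not tested.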

How the data were processed

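The deposited files give 2 counts per CpG site, its reads and its methylated reads, beside the authors' fraction of the second in the first. They carry no header, so columns were identified from their values. The submitters' processing notes name Bowtie and mm9; trimming steps and the program that called methylation are not named there. Sites with at least 10 reads in all 6 libraries were kept, and levels are methylated over covering reads. Windows of 1000 bp that held 3 or more sites received their summed counts, which edgeR 4.0.16 tested under R 4.3.3 (quasi-likelihood: an intercept per library, a group effect on methylated counts, 1 common dispersion of 0.00632). P-values were adjusted by Benjamini-Hochberg over all 89813 windows, and a call means an adjusted p under 0.05.

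Named for each gene were windows called in any comparison, the 3 largest differences between saline and sham, the 2 largest between 5AZA and saline, the window richest in sites and any window holding a located promoter. A promoter was located where at least 8 covered sites all fell on CpGs of its RefSeq sequence at a single offset of its chromosome; 22 of 101 listed genes were, and in 26 of 26 starts the strand was that of the table. The members and lists were chosen with earlier results of these data known. Deviations of saline and 5AZA libraries of the same number had a correlation of 0.0762 over windows. With 2 libraries per group, this cannot settle whether replicate numbers pair the libraries. Coverage counts reads, not molecules, and depth limits the precision of single sites. In the summed counts that were tested, a read that crosses several sites is counted at each. Alternatives were coverage minimums of 5 and 20, dropping the deepest 0.1% of sites or candidate fragment ends, limma 3.58.1 on log2 ratios with 1 added, 500 bp windows, 5 sites per window, a mean level of at least 20%, the 4 libraries compared, a replicate block, pooled reads and each library left out. Python 3.11.15 with numpy 2.4.6, pandas 2.3.3 and matplotlib 3.10.9 served for tables and figures.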

Additional observations from a re-analysis of the deposited data

How the results depend on the processing

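Counts of called windows changed most. Over the whole series, saline against sham gave 45 calls: 0 by limma (9756 at an unadjusted p under 0.05), 28 with 500 bp windows, 2 at a mean level of at least 20%, 0 without candidate fragment-end sites (8452 unadjusted), 72 with 4 libraries, and 0 to 72 with 1 library left out. 5AZA against saline gave 1396: 850 at a coverage minimum of 20, 0 by limma (18379 unadjusted), 413 with 500 bp windows, 0 without candidate fragment-end sites (17897 unadjusted), 173 with 4 libraries, and 0 to 1180 with 1 library left out. 5AZA against sham gave 1: 0 by limma and without candidate fragment-end sites, and 1 to 148 with 1 library left out. In the 4 genes, the 5 calls of 5AZA against saline became 0 by limma and without candidate fragment-end sites, 1 with 4 libraries and 0 to 3 with 1 library left out. With the replicate number as a block, 5AZA against saline gave 6856 calls, of which 6 in these genes. Whether a shared number is a pairing was not established. No paired analysis was possible for the comparisons with sham because the label of the second sham library gives no replicate number; the name sham 2 follows accession order. Windows of 500 bp give no value for windows of 1 kb.

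Among gene means, the difference between saline and sham moved for Runx3 to 2.00 points with pooled reads, for Spi1 to 2.66 at a coverage minimum of 5, and for Etv6 to 2.14 and 3.55 at minimums of 5 and 20 and to -2.66 with pooled reads, a reversal. That between 5AZA and saline moved for Runx3 to -3.17 at a minimum of 20 and to -1.69 with pooled reads, for Spi1 to -5.10 at a minimum of 5, and for Etv6 to -0.31 with pooled reads. Promoter regions moved between saline and sham to 0.57 points for Runx1 without candidate fragment-end sites and to 1.09 for Runx3 at a minimum of 20.

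Several named windows changed sign. At a coverage minimum of 20 the Etv6 window at 134216001 was at 0.97 points between saline and sham. Between these groups the sign of 6 other windows also changed: Runx3 at 134703001 to -1.27 without saline 2, Runx1 at 92689001 to -0.46 without sham 2, Runx1 at 92697001 to 0.27 without candidate fragment-end sites and up to 0.51 with 1 library left out, Etv6 at 133985001 to -0.51 without the deepest sites and as low as -1.16 with 1 library left out, and Spi1 at 90937001 and 90953001 up to 0.90 and as low as -0.61 with 1 library left out. Between 5AZA and saline, Etv6 at 133985001 was at 0.27 without the deepest sites and at -0.82 to 0.33 with 1 library left out, and Runx3 at 134708001 at 0.16 without candidate fragment-end sites. With 1 library left out, Etv6 at 134198001 ranged from -15.6 to 2.09, Runx1 at 92697001 from -0.48 to 0.98 (-0.06 without saline 2), and Spi1 at 90937001 from -5.15 to 0.37. The cause was not tested for any of these changes. For named windows, 203 alternative values of 5AZA against saline and 70 of 5AZA against sham kept their direction and side of the threshold, 41 lost the call and 1 gained it. For saline against sham, 231 moved by no more than the spread between replicates and 3 by more. Where 1 library stands for a group, its spread is taken to equal that of the remaining groups, and sham 2, with the fewest reads, limits the precision of every comparison with sham.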
